A study of Homo sapiens with 4 samples.

Results

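Notch receptors, their ligands and HES genes were followed in clones of the colon cancer cell line SW620 through every probe set that the array's annotation assigns to 10 genes: the receptors NOTCH1, NOTCH2 and NOTCH3, the ligands JAG1, JAG2, DLL1 and DLL4, and the transcription factors HES1, HES4 and HES6. These were 25 of the 54675 probe sets on the array. Of the 25, 24 named 1 gene and 1 named NOTCH2 together with 4 NOTCH2NL genes, its near-identical partial copies. SW620 is an established human colon cancer line. Per the labels, cells bearing the surface protein CD133 (CD133+) and cells without it (CD133-) were parted with a CD133 isolation kit, single cells were grown into clones (CPC1 for CD133+ and CNC1 for CD133-), and the clone cells were purified by CD133 once more before total RNA was taken. Both clones grew in Leibovitz's L-15 medium with serum, and no drug or genetic change was named. Each group was 1 clone measured on 2 arrays, so CD133 status and clone cannot be told apart, and no label says that the 2 arrays came from separate cultures. The p-values below therefore measure the spread between arrays, which may be technical.

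Notch receptors sit on the cell surface and are activated by Jagged and Delta-like ligands on a neighbouring cell. The receptor is then cut, its intracellular part enters the nucleus, and there it joins the DNA-binding protein RBPJ and a Mastermind coactivator to switch on genes of the HES and HEY families, which encode repressors. In the intestine this exchange keeps crypt cells dividing and steers them away from the secretory fate, in part because HES1 represses ATOH1, the factor that starts the goblet cell and other secretory programmes.

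The promoters of HES1, HES4, HES6 and JAG1 are shown because these genes carry the results below. Each is the 250 bases before the gene's start, 5′ to 3′ on the gene's strand, from RefSeq on GRCh38.p14. Capitals mark TGGGAA, the core of the RBPJ motif, searched on both strands.
HES1, chr3:194135898-194136147, plus strand: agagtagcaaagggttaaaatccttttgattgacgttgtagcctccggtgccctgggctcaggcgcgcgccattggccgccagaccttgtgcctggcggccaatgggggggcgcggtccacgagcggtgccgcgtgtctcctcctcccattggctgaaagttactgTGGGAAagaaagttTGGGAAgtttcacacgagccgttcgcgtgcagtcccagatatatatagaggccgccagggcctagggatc
HES4, chr1:1000098-1000347, minus strand: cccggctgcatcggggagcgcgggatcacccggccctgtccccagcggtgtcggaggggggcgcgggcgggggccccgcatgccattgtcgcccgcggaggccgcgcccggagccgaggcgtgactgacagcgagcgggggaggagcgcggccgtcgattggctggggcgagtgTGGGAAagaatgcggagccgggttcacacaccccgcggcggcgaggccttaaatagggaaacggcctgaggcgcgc
HES6, chr2:238240039-238240288, minus strand: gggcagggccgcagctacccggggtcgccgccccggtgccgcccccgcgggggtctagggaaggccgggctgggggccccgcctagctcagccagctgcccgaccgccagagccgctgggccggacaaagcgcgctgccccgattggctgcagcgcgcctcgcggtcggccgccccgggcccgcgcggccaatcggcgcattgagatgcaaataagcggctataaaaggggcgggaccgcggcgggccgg
JAG1, chr20:10674000-10674249, minus strand: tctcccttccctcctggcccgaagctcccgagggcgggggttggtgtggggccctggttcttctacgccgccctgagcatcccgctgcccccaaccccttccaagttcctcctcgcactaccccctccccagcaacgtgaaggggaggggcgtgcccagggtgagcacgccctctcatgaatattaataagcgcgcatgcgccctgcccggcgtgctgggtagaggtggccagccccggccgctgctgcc
The HES1 window held 2 copies of TGGGAA, whose first bases lay 84 and 70 bases before the start, and the HES4 window held 1, at 76 bases before the start. The HES6 and JAG1 windows held none, nor did those of NOTCH1, NOTCH2, NOTCH3, JAG2 and DLL4. The RefSeq table matched 9 of the 10 genes, all but DLL1. Of 35116 such windows in the whole table, in which a gene can have several starts, 20.8% held the motif at least once and 2.90% at least 2 times. The longer GTGGGAA, which contains TGGGAA, stood once in HES1 and once in HES4 and in 5.43% of all windows. CACNAG, the N box that HES proteins bind, stood 3 times in HES1 and once in NOTCH3 on either strand, and in 32.0% of all windows. These matches describe the letters and do not show binding in these cells.

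Of the 23 probe sets that named 1 gene and were tested, 1 passed at a limma adjusted p under 0.05, that of HES6, which was lower in CD133+ cells. Among all 43690 probe sets tested on the array, 0.330% were called, 0.0893% higher (39) and 0.240% lower (105) in CD133+ cells. No receptor passed, and 6 of their 8 differences were positive. NOTCH1, a main receptor of the crypt, gave 6.76 and 6.95 in CD133+ against 6.40 and 6.80 in CD133- cells in 218902_at, a difference of 0.26 (SE 0.21, limma adjusted p = 0.606). In 223508_at it gave 4.33 and 4.78 against 4.13 and 4.57, a difference of 0.20 (SE 0.25, limma adjusted p = 0.746). In both, replicate 2 was higher than replicate 1 in each clone and the clones overlapped. The difference of 218902_at was 0.11 without quantile normalization and 0.033 after median centring. NOTCH2, the other receptor known to act in crypts, was read by 4 probe sets that disagreed in sign. The brightest, 202443_x_at, gave 8.09 and 7.99 against 7.73 and 7.68, without overlap, and differed by 0.34 (SE 0.14, 95% interval from 0.0014 to 0.67, limma adjusted p = 0.343). That difference was 0.18 without quantile normalization and 0.097 after median centring, and this probe set too has the suffix x, which marks possible cross-hybridisation. The probe set 212377_s_at gave 7.26 and 7.52 against 7.36 and 7.45, a difference of -0.018 with overlapping clones. In 210756_s_at, with 6.74 and 6.51 against 6.43 and 6.50, the clones just failed to overlap, and the difference of 0.16 turned to -0.041 after median centring. The dim 202445_s_at gave 3.68 and 3.50 against 3.87 and 3.54, a difference of -0.12 with overlap. Probes of NOTCH2 may also detect NOTCH2NL transcripts. The probe set annotated to both, 227067_x_at, gave 6.87 and 6.997 against 6.83 and 6.83, a difference of 0.10 (SE 0.17). NOTCH3, a receptor often studied in vessel walls and in colon cancer, gave 4.85 and 5.16 against 4.75 and 4.73 in 203238_s_at and 4.39 and 4.89 against 4.46 and 4.58 in 203237_s_at. The first pair did not overlap, at a difference of 0.26 (SE 0.22, limma adjusted p = 0.614), and the second did, at 0.12 (SE 0.23, limma adjusted p = 0.851).

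**Figure D1:**
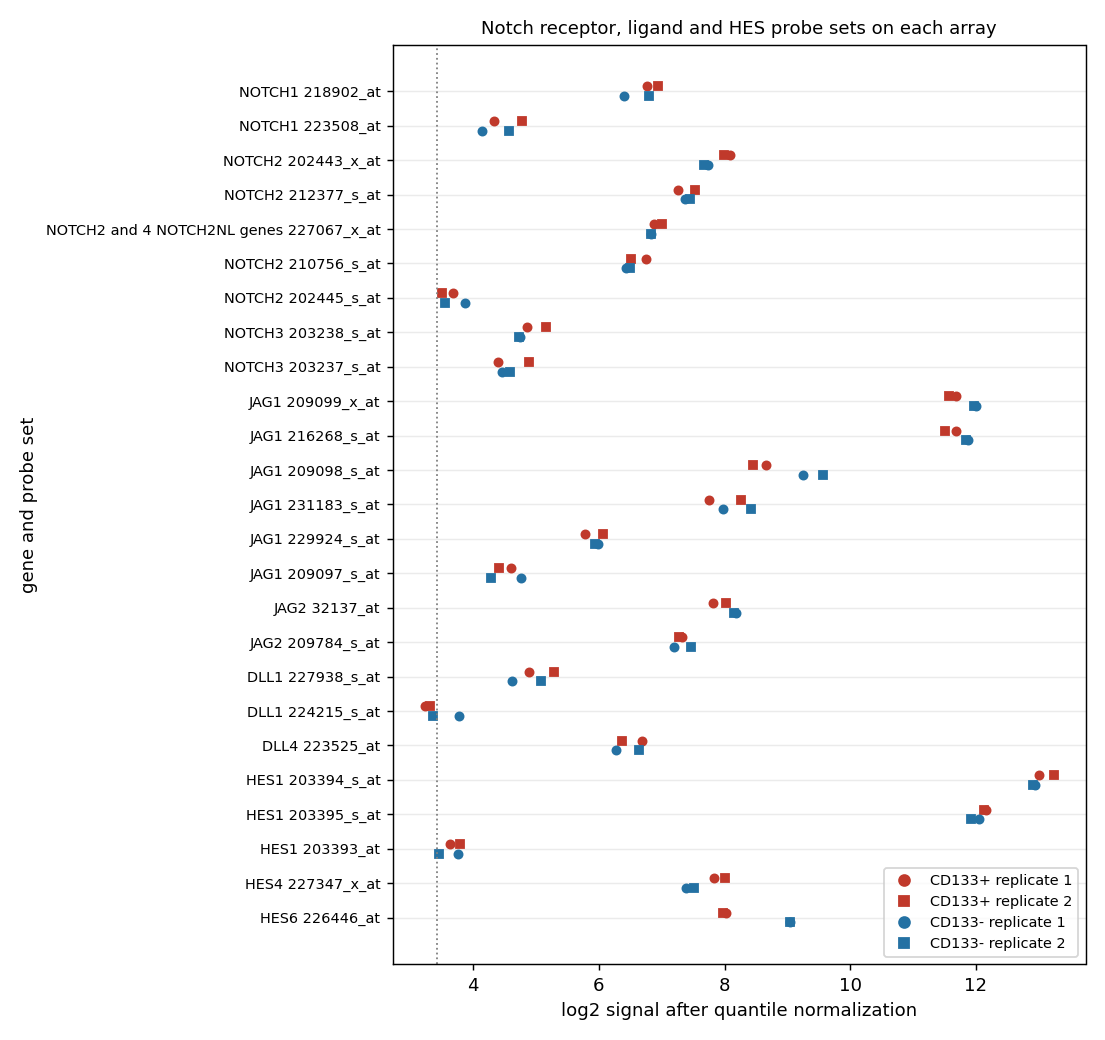
Log2 signal after quantile normalization (x axis) of each of the 25 probe sets (y axis) on each of the 4 arrays; red stands for CD133+, blue for CD133-, circles for replicate 1 and squares for replicate 2, and the dotted line is the level under which the lowest 20% of probe sets were not tested. The HES6 arrays split by clone, at 8.02 and 7.98 against 9.05 and 9.04, while in 12 of the 23 tested probe sets the clones overlap.

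Among the ligands JAG1 stood out, with a negative difference in all 6 of its probe sets and none past the threshold. The 6 read 1 gene on the same 4 arrays. JAG1 encodes Jagged 1, a membrane ligand of Notch receptors that is itself raised by Wnt signalling in colon tumours. Its brightest probe set, 209099_x_at, which also has the suffix x, gave 11.68 and 11.58 in CD133+ against 12.00 and 11.97 in CD133- cells. The next, 216268_s_at, gave 11.68 and 11.51 against 11.88 and 11.84. The probe set 209098_s_at gave 8.65 and 8.45 against 9.25 and 9.56. In these 3 probe sets both CD133+ arrays lay below both CD133- arrays. The differences were -0.35 (SE 0.074, limma adjusted p = 0.104), -0.26 (SE 0.083, limma adjusted p = 0.226) and -0.85 (SE 0.15, limma adjusted p = 0.0719). All 3 had a negative sign in every alternative that gave them a value. The alternatives of filter, variance model and block cannot change a difference. Leaving out 1 array could hardly turn these signs, as the clones did not overlap. In the other 3 the clones overlapped, and each turned positive under at least 1 alternative. The probe set 231183_s_at gave 7.75 and 8.26 against 7.97 and 8.42, a difference of -0.19 (SE 0.22). The probe set 229924_s_at gave 5.78 and 6.06 against 5.99 and 5.93, a difference of -0.039. The dimmest, 209097_s_at, gave 4.61 and 4.41 against 4.76 and 4.29, a difference of -0.011 that turned to 0.060 without quantile normalization. Probe sets of the same gene thus ranged from -0.85 to -0.011, and the sources used here do not say which part of JAG1 each one reads. JAG1 passed where 1 probe set stood for each gene (209099_x_at, limma adjusted p = 0.0464), but not where the mean of its probe sets stood for it. It also passed without CD133+ replicate 1, at 0.0468 for 209099_x_at and 0.0343 for 209098_s_at. Over their alternatives the limma adjusted p ran from 0.0241 to 0.615 and from 0.0239 to 0.197.

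JAG2 and the Delta-like ligands did not pass. JAG2, the second Jagged ligand, gave 7.82 and 8.03 against 8.18 and 8.15 in 32137_at, where the CD133+ arrays lay below, and 7.32 and 7.27 against 7.20 and 7.47 in 209784_s_at, where the clones overlapped. The differences were -0.24 (SE 0.15, limma adjusted p = 0.486) and -0.040 (SE 0.17, limma adjusted p = 0.937). After median centring they were -0.47 and -0.30. DLL1, a Delta-like ligand of crypt secretory progenitors, gave 4.89 and 5.29 against 4.61 and 5.07 in 227938_s_at, a difference of 0.25 (SE 0.26, limma adjusted p = 0.694). Replicate 2 was the higher array in both clones there. Its other probe set, 224215_s_at, with 3.23 and 3.31 against 3.77 and 3.35, had a mean of 3.416 that lay just under the level of 3.417 below which probe sets were not tested. It was the only 1 of the 24 left out in this way. DLL4, a ligand best known from blood vessels and also made by secretory precursors of the gut, gave 6.69 and 6.36 against 6.27 and 6.65. Its difference of 0.068 (SE 0.22, limma adjusted p = 0.914) turned to -0.038 without quantile normalization and to -0.12 after median centring.

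HES6 was the one gene of the family that was called. It is an unusual HES protein that is known to counter HES1 and to favour differentiation. Its 1 probe set, 226446_at, gave log2 signals of 8.02 and 7.98 in CD133+ cells and of 9.05 and 9.04 in CD133- cells. Both CD133+ arrays lay about 1 log2 unit below both CD133- arrays. The values as deposited were 8.001 and 7.84 against 9.14 and 9.02, so the arrays of a clone lay closer together after quantile normalization than before it. The means were 7.998 ± 0.028 (SD, n = 2) and 9.04 ± 0.0036 (SD, n = 2). HES6 fell by 1.05 on the log2 scale (SE 0.13, 95% interval from -1.34 to -0.75), which is 2.07-fold, with a limma adjusted p of 0.0399. Of the alternative settings, those of filter, variance model, 1 value per gene and block cannot change this difference. Leaving out 1 array could hardly turn its sign, as the clones lay about 1 log2 unit apart. The HES6 difference had the same sign in all 13 alternative settings, between -1.24 and -1.01, while its limma adjusted p ran from 0.00883 to 0.185. The call was lost when the deposited values were used as they stood (0.0686), with arrays centred on their medians (0.0738), without the trend of variance on level (0.146), without CD133- replicate 1 (0.185) and without CD133- replicate 2 (0.0868).

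HES1 and HES4 were on the other side of 0 and did not pass. HES1 is the best known Notch target and the repressor of ATOH1 in the gut. Its probe set 203394_s_at gave 13.00 and 13.24 in CD133+ against 12.94 and 12.91 in CD133- cells. The second, 203395_s_at, gave 12.16 and 12.13 against 12.04 and 11.92. In both, the CD133+ arrays lay above the CD133- arrays by a small margin. The differences were 0.20 (SE 0.083, limma adjusted p = 0.335) and 0.17 (SE 0.074, limma adjusted p = 0.365). The third, 203393_at, was dim, with 3.64 and 3.80 against 3.76 and 3.46, and its groups overlapped. Without CD133+ replicate 1 the difference of 203394_s_at was 0.32 and passed (limma adjusted p = 0.0471, against 0.0471 to 0.832 over its 13 alternatives), and without CD133+ replicate 2 it was 0.072. After median centring the differences of 203394_s_at and 203395_s_at shrank to 0.079 and 0.070. HES4, a HES family repressor of humans, was read by 227347_x_at, another probe set with the suffix x. It gave 7.83 and 8.002 in CD133+ and 7.39 and 7.52 in CD133- cells, so the groups did not overlap. The difference was 0.46 (SE 0.16, 95% interval from 0.095 to 0.82), with a limma adjusted p of 0.245. It kept its sign in all 13 alternatives but was 0.29 without quantile normalization and 0.21 after centring each array on its median.

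**Figure D2:**
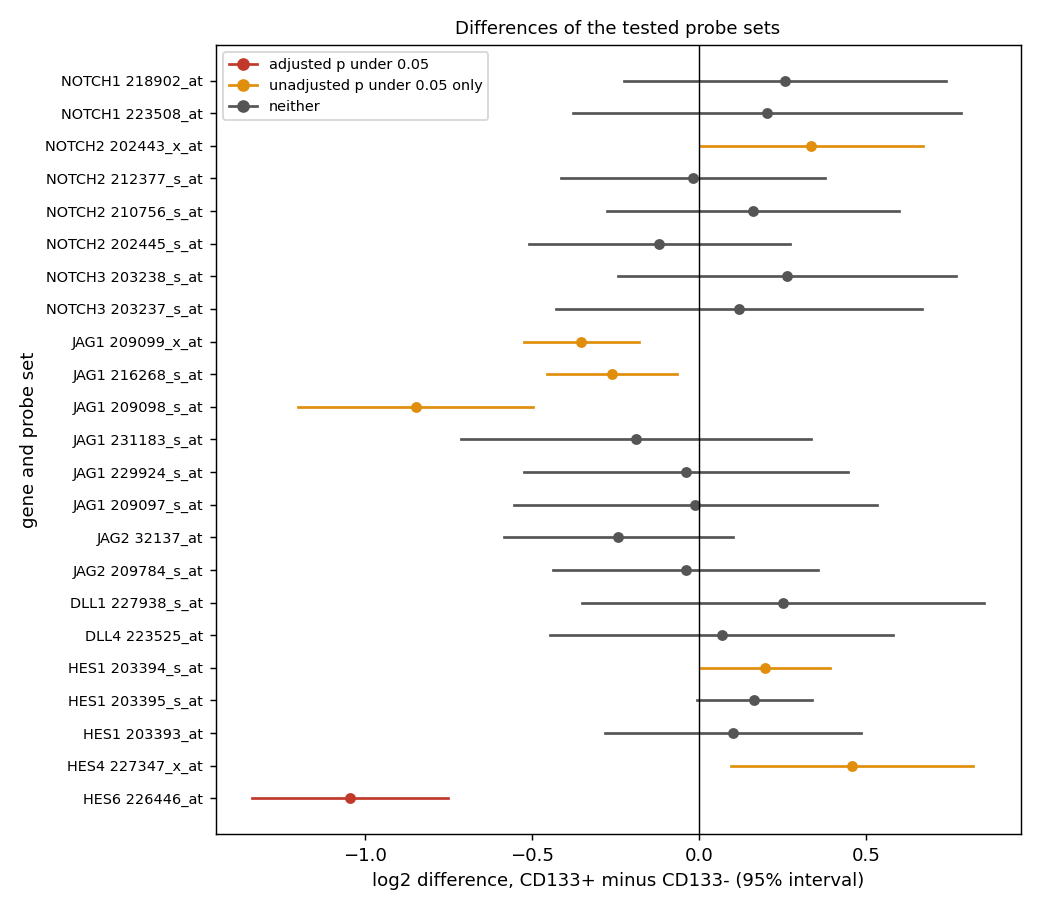
Log2 difference, CD133+ minus CD133-, with its 95% limma interval (x axis), for the 23 tested probe sets that name 1 gene (y axis). HES6 (red) lies at -1.05 and is the only one with an adjusted p under 0.05, and orange marks the 6 others with an unadjusted p under 0.05, among them JAG1 209098_s_at at -0.85 and HES4 at 0.46.

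The 23 tested probe sets were set beside the whole array. Of the 23, 11 had clones that did not overlap and 11 had a lower mean in CD133+ cells, beside 46.3% and 46.5% of all tested probe sets. In 5 of them CD133+ was lower, with both arrays below, and in 6 they were above, while 21.2% and 25.1% of all tested probe sets did so. At an unadjusted limma p under 0.05 there were 7 of 23, 4 lower and 3 higher, beside 14.5% of all. The 4 lower ones were HES6 and 3 of JAG1, which read 1 gene. The median difference was 0.068 over the 23 and 0.023 over all probe sets tested. The number of member probe sets called was 4 without CD133+ replicate 1, 1 without CD133+ replicate 2, and 0 without either CD133- replicate. Over the whole array the count of 144 became 474, 246, 9 and 36 in the same order, the last 2 for CD133- replicates 1 and 2.

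The labels and the arrays were checked on a few facts that touch these values. PROM1, the gene of CD133, had 8.46 and 8.73 in CD133+ and 3.31 and 3.35 in CD133- cells (limma adjusted p = 0.000463), so the arrays match the sort. All 10 colon epithelial markers examined were above the level filter on average, EPCAM between 11.95 and 12.32. So were all 4 leukocyte, all 6 fibroblast and 3 of 5 endothelial genes, and passing the filter did not tell cell types apart. The epithelial means ran from 4.71 for LGALS4 to 14.09 for KRT18. LGALS4, CDX1 (6.20) and CDX2 (6.22) lay below COL1A1 (6.98), a fibroblast marker. Of the markers of other cells, summed linear signals over the list ran from 129 to 156 in CD133+ and from 124 to 127 in CD133- arrays for 4 leukocyte genes, from 293 to 326 and from 318 to 332 for 6 fibroblast genes, and from 120 to 145 and from 109 to 128 for 5 endothelial genes, of which CDH5 and KDR were below the filter. None of these markers passed. At an unadjusted limma p under 0.05 there were 4 of the 10 epithelial ones, beside 17.3% of all genes, and 0 of the others. EPCAM, KRT8 and VIL1 were lower in CD133+ cells, at -0.26, -0.17 and -0.35, and CDH1 was higher, at 0.26. Only 1 of the 2 CDH1 probe sets had that sign, while all 4 of VIL1 had the sign given. No file gave a detection call, and no marker reads 0 on this scale. The log2 signal of the 3' probe set of ACTB exceeded that of its 5' probe set by 0.71 and 1.92 in CD133+ cells and by 1.18 and 0.92 in CD133- cells, so the second CD133+ array was highest in this sign of RNA length. The same difference for GAPDH was 0.097 and 0.090 in CD133+ and 0.017 and 0.026 in CD133- cells, which did not set that array apart and split by clone. The part of these signs in the results was not tested. Without CD133+ replicate 2 HES6 was at -1.01 (limma adjusted p = 0.0302).

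The wider pathway showed no called gene. A set of 61 further genes was listed by role, 55 of them had a probe set naming only them, and all 55 were tested, each by its brightest probe set. None passed in either direction, beside 0.547% of the 17536 genes tested in this way (0.165% higher and 0.382% lower). At an unadjusted limma p under 0.05 there were 6 of the 55, 4 higher and 2 lower, beside 17.3% of all genes. The median difference of the 55 was 0.095, against 0.055 over all genes, and it was 0.021 without quantile normalization and -0.057 after median centring, so its sign turned with the scaling. Of the 55 genes 38 had a positive and 17 a negative difference. The 46.5% with a lower mean in CD133+ cells is a share of all tested probe sets. That share was not counted over genes by brightest probe set, whose median of 0.055 lay above the 0.023 of all probe sets. By brightest probe set, 29.5% of all genes were higher and 20.3% lower in CD133+ cells without overlap. The counts of sign over the 55 and by role below hold after quantile normalization and were not made in the other scalings. The other receptors and ligands, 4 genes, all had positive differences. NOTCH4, a receptor mainly of endothelium, gave 5.87 and 5.88 against 5.15 and 5.21, without overlap. It differed by 0.70 (SE 0.20, limma adjusted p = 0.197).

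In the nuclear complex the 14 tested genes had 8 positive and 6 negative differences. MAML2, a Mastermind coactivator, gave 6.99 and 6.89 in CD133+ against 8.10 and 7.74 in CD133- cells. This was a difference of -0.98 (SE 0.18, limma adjusted p = 0.0761), close in size to that of HES6, and it passed where 1 probe set stood for each gene (limma adjusted p = 0.0249). RBPJ, the DNA-binding partner of every Notch receptor, gave 10.54 and 10.24 against 9.96 and 10.08, a difference of 0.37 (SE 0.12, limma adjusted p = 0.240). It was named after its value was seen. Of its 3 probe sets 2 had that sign.

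Among the 8 tested proteases that mature and cut the receptor, FURIN, which makes the first cut, gave 7.30 and 7.36 against 6.77 and 7.02 and differed by 0.43 (SE 0.17, limma adjusted p = 0.315). The 5 sugar transferases of the receptor were led by LFNG, a Fringe enzyme, at -0.31 (SE 0.25, limma adjusted p = 0.606), with overlapping clones. Only 1 of the 2 LFNG probe sets had that sign. Of the 11 trafficking and ubiquitin ligase genes the smallest p was that of DTX3, a Deltex family ligase, with 7.89 and 7.86 against 7.44 and 7.47. It differed by 0.42 (SE 0.15, limma adjusted p = 0.258), and all 5 of its probe sets had that sign. The other HES and HEY genes with NRARP, a target that feeds back on Notch, had 6 of 7 positive differences. HEYL, a HEY repressor, was at 0.44 (SE 0.23, limma adjusted p = 0.424), and only 1 of its 2 probe sets had that sign. For HEY2 it was 1 of 2, for HES2 1 of 3 and for HEY1 2 of 2. HES2 and HES7 lay near 0, at 0.030 and 0.012.

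Of the 6 lineage factors tested, 5 had positive differences. One of them was ATOH1, named after its value was seen, at 0.41 (SE 0.21, limma adjusted p = 0.410). The exception was ASCL2, which is known as a Wnt-driven factor of crypt stem cells and not of secretory cells. ASCL2 gave 7.65 and 7.66 against 8.15 and 8.19, a difference of -0.51 (SE 0.14, limma adjusted p = 0.174). Both CD133+ arrays lay below both CD133- arrays.

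**Figure D3:**
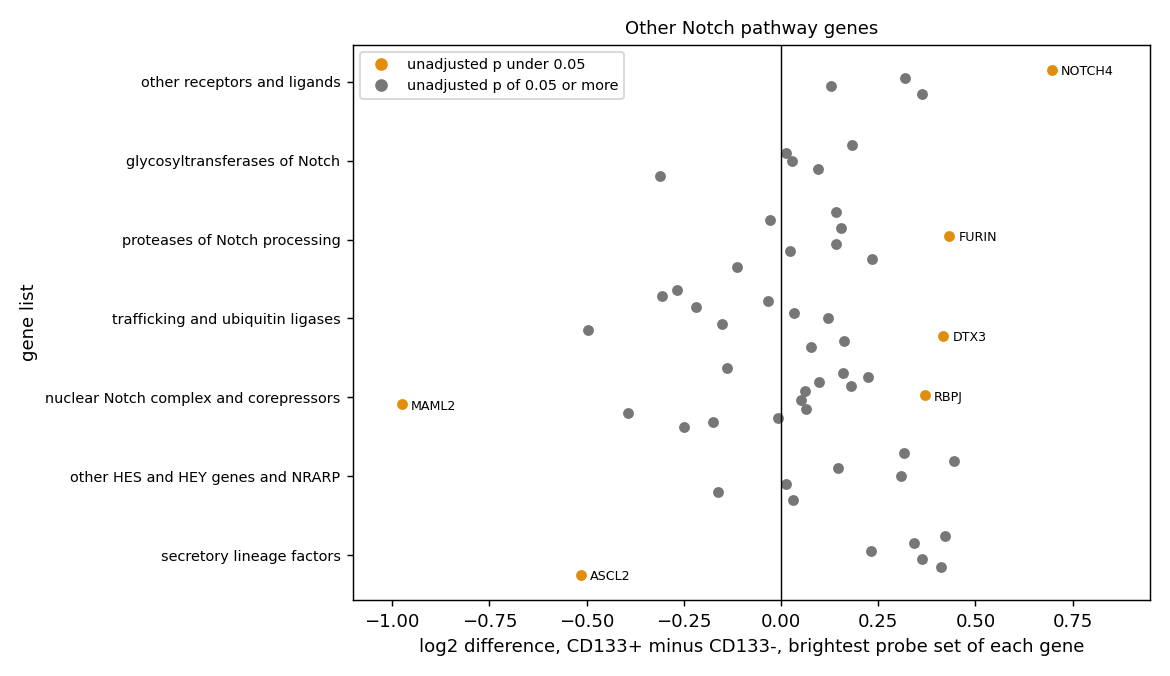
Log2 difference, CD133+ minus CD133- (x axis), of the brightest probe set of each of the 55 other Notch pathway genes, grouped by role (y axis). Orange points have an unadjusted limma p under 0.05, from MAML2 at -0.98 to NOTCH4 at 0.70, and none passed after adjustment over the whole array.

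HES6 and JAG1 lay among genes whose differences were mostly negative too, none of them called. Up to 10 tested genes on each side of every member were taken in RefSeq gene order (20 in all for 9 of the genes and 14 for DLL1), after the values of HES6 and JAG1 were known. Around HES6 on chromosome 2, 14 of 20 neighbours had a negative difference, and in 11 of 20 both CD133+ arrays lay below both CD133- arrays, beside 20.3% of all genes tested. In 4 they lay above, beside 29.5%. On one side of HES6 the next tested gene was PER2, a clock repressor, which gave 8.61 and 8.71 against 9.49 and 9.40, a difference of -0.78 (SE 0.12, limma adjusted p = 0.0557). On its other side the next was LINC02610, a long non-coding RNA gene, which ran the other way, with 4.77 and 4.41 against 3.99 and 4.01, a difference of 0.59 (SE 0.20, limma adjusted p = 0.251). ESPNL was also higher without overlap, at 0.54 (SE 0.24). RAMP1, a receptor partner of the calcitonin family, was at -1.30 (SE 0.33), SCLY, selenocysteine lyase, at -0.70 (SE 0.16), and HDAC4, a histone deacetylase, at -0.61 (SE 0.12). Around JAG1 on chromosome 20, 14 of 20 neighbours were negative and 9 of 20 were lower without overlap, with 2 of 20 higher without overlap. ESF1, a gene of ribosome assembly, gave 8.43 and 7.34 against 9.36 and 9.03, a difference of -1.31 (SE 0.32). PLCB1, a phospholipase, was at -1.29 (SE 0.27) and TMX4, a membrane thioredoxin, at -0.75 (SE 0.14, limma adjusted p = 0.0783). LAMP5, a LAMP family protein, was higher without overlap, at 0.47 (SE 0.16, limma adjusted p = 0.258).

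None of the 20 neighbours of HES6 or of JAG1 passed, beside 0.547% of all genes. At an unadjusted limma p under 0.05 there were 10 of each 20, 9 of them lower in each case, beside 17.3% of all genes. The median difference of the neighbours was -0.12 around HES6 and -0.18 around JAG1, against 0.055 over all genes, -0.049 over the 1154 tested genes of chromosome 2 and 0.083 over the 541 of chromosome 20. Without quantile normalization the neighbour medians were -0.26 and -0.15 and after median centring -0.34 and -0.23, against all-gene medians of 0.041 and -0.038. Around the other 8 genes between 1 and 7 neighbours were lower without overlap, 7 of 20 for HES1 and 2 of 14 for DLL1. Between 2 and 11 were higher without overlap, beside 29.5% of all genes, with 11 of 20 around NOTCH3 and 7 of 20 around HES4. Of the neighbours of NOTCH3 15 of 20 were positive and of those of HES4 17 of 20, as were the differences of these 2 members. Their neighbour medians were 0.26 and 0.20, and 0.15 and 0.092 after median centring. By sign alone, HES1 had as many negative neighbours as HES6 and JAG1, 14 of 20, though its own differences were positive. DLL1 had 9 of 14, and the rest had between 3 and 8 of 20. The part that chromosomal position has in the differences of HES6, JAG1 and the other members was not tested.

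**Figure D4:**
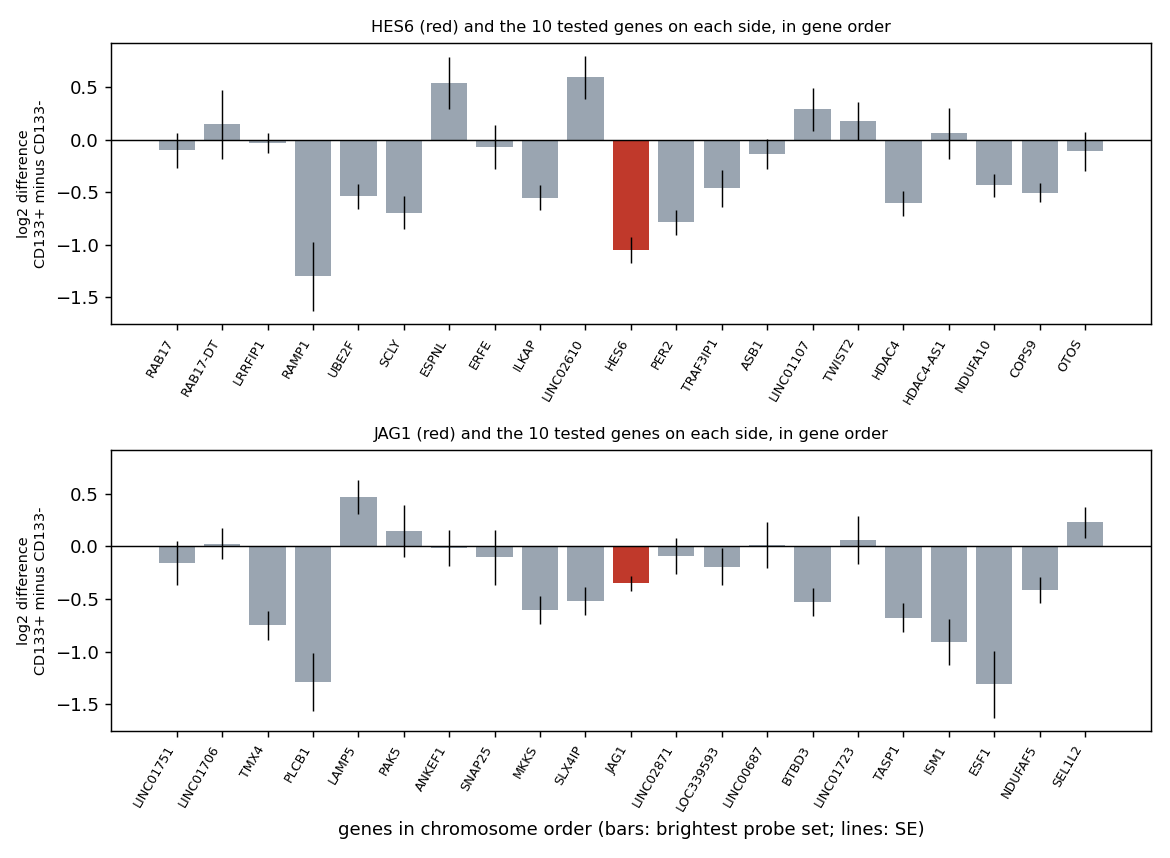
Log2 difference, CD133+ minus CD133- (y axis, lines are SE), of HES6 (top) and JAG1 (bottom) in red and of 10 tested genes on each side in grey, by gene order (x axis, not to distance). Below 0 lie 14 of the 20 neighbours in each panel, down to -1.30 for RAMP1 and -1.31 for ESF1.

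The genes whose profiles were most like that of HES6, by the Euclidean distance of mean-centred log2 signals over the 4 arrays, were TLK1 (distance 0.041), a chromatin assembly kinase, MYZAP (0.084) and STK25 (0.12), a serine/threonine kinase. TLK1 and STK25 are also on chromosome 2. TLK1 gave 8.92 and 8.86 against 9.94 and 9.89 and passed (limma adjusted p = 0.0343). For the brightest JAG1 probe set they were ZNF44 (0.0038), the actin-binding villin VIL1 (0.011) and ZBTB24 (0.029), none of which passed. With 4 arrays in 2 clones this distance mostly reads the size of the difference between clones.

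**Figure D5:**
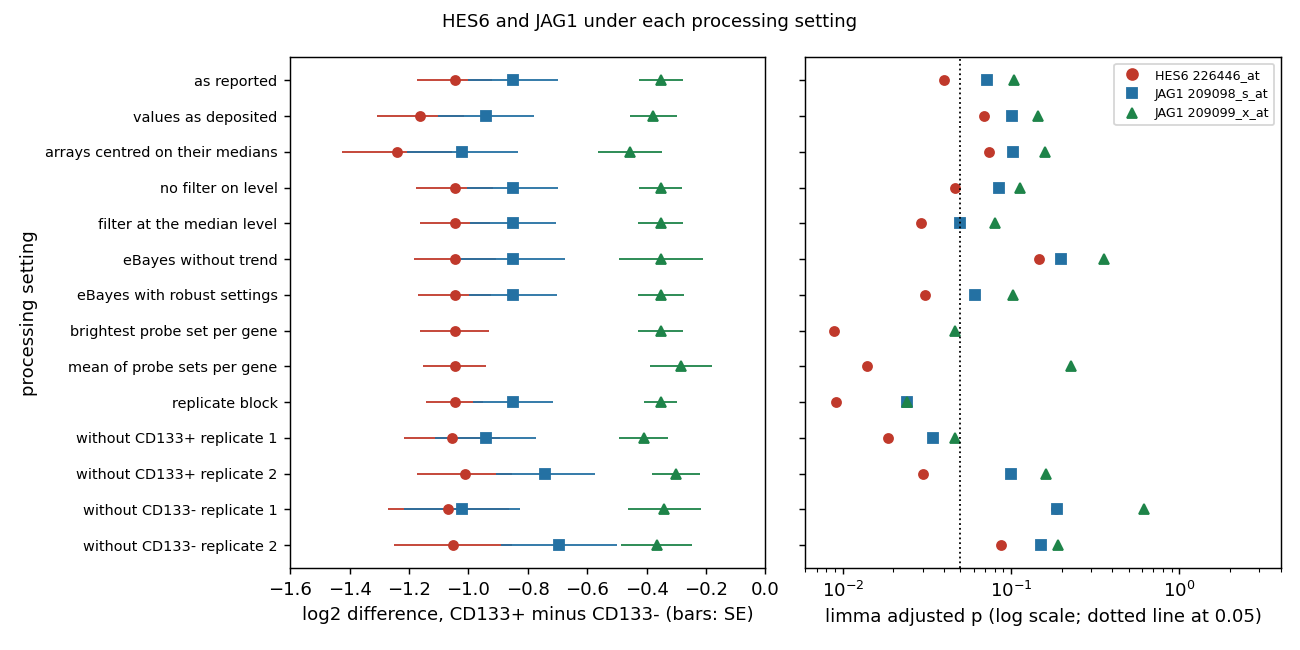
Log2 difference with its SE (left) and limma adjusted p on a log axis (right) of HES6 and the JAG1 probe sets 209098_s_at and 209099_x_at under the reported setting and the 13 alternatives (y axis). HES6 stays between -1.24 and -1.01, with adjusted p on both sides of 0.05 (dotted line), and a point is missing where a setting gave that probe set no value of its own.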

How the data were processed

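Total RNA of the 4 samples was measured on Affymetrix arrays. The authors deposited log2 signals, 1 per probe set and array, between 2.52 and 14.57. Per the submitters' processing notes Affymetrix Expression Console made them. Its version, background correction and normalization are not given in the sources used here. Array medians differed by 0.144, so quantile normalization was applied, which removes any true difference in overall distribution. The 62 control probe sets and the lowest 20% of the others by mean level (10923, at a log2 signal of 3.42 or less) were left out. The other 43690 entered limma 3.58.1 under R 4.3.3 (lmFit, eBayes with trend, prior degrees of freedom 5.40), with Benjamini-Hochberg adjustment over all 43690 and a threshold of 0.05. An exact two-sided permutation test of 2 against 2 arrays cannot give a p below 0.333. The median SE was 0.19, and precision is limited by having 4 arrays. The fit was tested on simulated data.

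Names came from the platform annotation (41091 probe sets with 1 gene, 1801 with several, 11721 with none), updated through RefSeq gene IDs. Named were all members, PROM1, each other pathway gene called, in each pathway list the gene with the smallest p, and the 3 genes nearest in profile to HES6 and to JAG1. The neighbours and cell type markers named, RBPJ and ATOH1 were picked after their values were seen. Members and lists were chosen with earlier results of these data known. Motifs were counted in Python 3.11.15. Alternatives covered normalization, level filter, variance model, 1 value per gene, replicate block and leaving out each array. The reported fit has no block.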

Additional observations from a re-analysis of the deposited data

How the results depend on the processing

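The calls depended strongly on the processing, the directions of HES6 and of the 3 separated JAG1 probe sets did not. The number of probe sets called over the array was 144 as reported, 10 in the values as deposited, 17 with arrays centred on their medians, 99 with no filter on level, 336 with a filter at the median level, 2 without the variance trend, 198 with robust settings, 592 genes with the brightest probe set per gene, 250 genes with the mean of probe sets, and 9 to 474 when 1 array was left out. The share of called probe sets that were higher was 27.1% as reported, 30.0% in the values as deposited, 29.4% with centred arrays, 1 of 2 without the trend, and 21.1% to 55.6% with 1 array left out. The number of member probe sets called was 1 as reported (HES6), 0 in the values as deposited, 0 with centred arrays, 0 without the trend, 2 genes (HES6 and JAG1) with the brightest probe set per gene, and 0 to 4 with 1 array left out. With the mean of probe sets per gene 1 member was called, HES6, and JAG1 was not. At an unadjusted p under 0.05 limma gave 5, 5 and 4 of 23 member probe sets in the 3 full settings with 0 calls. Over the whole array it gave 6037, 5719 and 6095 of 43690 in the same order. Of the other pathway genes 0 were called as reported (6 at an unadjusted limma p under 0.05) and 1, MAML2, with the brightest probe set per gene. No other alternative without a block called one.

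The labels number the arrays 1 and 2 in both clones but do not say that a number is shared. The replicate 1 minus replicate 2 differences of the clones correlated across probe sets at r = 0.423, which with 2 pairs does not establish a pairing. With the replicate block 2545 probe sets were called, 3 of them members (HES6 and the JAG1 probe sets 209098_s_at and 209099_x_at), and 2 other pathway genes, MAML2 and ASCL2.

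Of the 23 member probe sets tested, 11 kept their sign under every one of the 13 alternatives that gave them a value. The other 12 changed it under at least 1. The alternatives of filter, variance model and block cannot change a difference, so only the others could turn a sign. No changed sign belonged to a called value. The turned values were 0.060 for JAG1 209097_s_at and -0.038 for DLL4 in the values as deposited, -0.041 for NOTCH2 210756_s_at and -0.12 for DLL4 with centred arrays, and -0.023 for DLL1 in the mean of its probe sets, 1 of which was not tested alone. With 1 array left out the ranges were -0.15 to 0.11 for NOTCH2 212377_s_at, -0.28 to 0.046 for NOTCH2 202445_s_at, -0.11 to 0.25 for DLL4, -0.18 to 0.10 for JAG1 229924_s_at, -0.44 to 0.065 for JAG1 231183_s_at, -0.25 to 0.22 for JAG1 209097_s_at, -0.13 to 0.37 for NOTCH3 203237_s_at, -0.023 to 0.43 for NOTCH1 223508_at, -0.047 to 0.26 for HES1 203393_at and -0.18 to 0.095 for JAG2 209784_s_at. A clone left with 1 array takes its spread from the other clone. The cause of these changes was not tested.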
